A study of Mus musculus with 8 samples.

Results

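The 50 genes described here serve the entry of proteins into the endoplasmic reticulum (ER), their folding there, the removal of misfolded chains and the exit of finished cargo. They were listed by symbol, and all 50 are among the 24062 genes of the expression table. The table gives FPKM, fragments scaled to the length of a gene's exons and to the depth of the library. A minimum of 1 FPKM in 2 or more of the 8 libraries was reached by 49 of the 50, which were tested together with all 13210 genes that reached it. Derl3, a derlin of ER-associated degradation (ERAD), did not reach that level in any library. The libraries are RNA of mouse R1 embryonic stem cells (ESC) and of HC11 mammary epithelial cells (MEC), 2 libraries for each of 4 groups, and both lines are wild type by their labels. HC11 is a line derived from COMMA-1D cells of Balb/c mice, so that all MEC results come from 1 line. Normal cells (N) were grown to confluence with EGF and insulin. Primed cells (P) had 48 hours of hydrocortisone and insulin without EGF, in medium with a lower share of serum that was kept for PRL, and PRL treated cells (PRL) had 72 further hours of hydrocortisone, insulin and prolactin. ESC of the R1 line, from 129 strain mice, were kept in serum with LIF and 2i inhibitors on a layer of feeder cells. By the methods of the study, ESC were separated from the feeder fibroblasts, which attach sooner to a fresh plate, before RNA was taken. In P against N the added hydrocortisone, the loss of EGF, the reduced serum and the time in culture cannot be told apart, and neither can prolactin and time in culture in PRL against P. In PRL against N all of these differ together. In N against ESC the cell type, the line, the mouse strain, the medium and the feeder culture differ together and cannot be told apart.

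Secreted proteins enter the ER through the Sec61 channel, lose their signal peptide, receive N-glycans and fold with the help of the chaperone BiP (Hspa5), of lectin chaperones and of protein disulfide isomerases. When folding lags, sensors in the ER membrane start the unfolded protein response (UPR), in which the transcription factors Xbp1, Atf6 and Atf4 raise the expression of chaperones and of ERAD genes. The secretory cells of the lactating mammary gland carry an extended ER, in which milk proteins such as caseins are made.

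Many UPR target genes carry an ER stress element (ERSE), which is read as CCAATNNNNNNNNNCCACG, or a shorter form of it (ERSE-II), read as ATTGGNCCACG. RefSeq promoters of GRCm38.p6, from 250 bases before to 50 bases after the start of transcription, were matched for 42 of the 50 genes and searched on both strands. The ERSE was found in the promoters of 9 of these 42 genes (21.4%), against 37 of all 27025 genes with a promoter sequence (0.137%). The 9 genes are Hspa5, Hsp90b1, Calr, Canx, Pdia6, Dnajc3, Creld2, Syvn1 and Derl3. The ERSE-II was found in Herpud1 and Dnajb11, 2 of 42 genes (4.76%), against 12 of all genes (0.0444%). A further motif bound by factors of the ATF6 and CREB families, TGACGTG, was found in Hspa5 and Sec24d (4.76% of 42 genes, against 2.22% of all genes). The list holds UPR target genes, of which many are known for these elements, so its higher shares are not an independent result. These matches are letters only, and no binding was measured.

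The promoters of 5 of the genes with an ERSE or ERSE-II are shown, 5′ to 3′ in the direction of the gene, with the element in capitals. Its part in the levels of these genes was not tested. None of the 3 motifs was found in the matched promoters of Xbp1, P4hb, Sec61b and Sec62, whose levels are also described below. Hspa5 lies at chr2:34771840-34772139 (plus strand), Herpud1 at chr8:94386179-94386478 (plus strand) and Hsp90b1 at chr10:86705395-86705694 (minus strand). Pdia6 lies at chr12:17266339-17266638 (plus strand) and Creld2 at chr15:88819396-88819695 (plus strand). The element lies from base −65 to −47 in Hspa5, −52 to −42 in Herpud1, −98 to −80 in Pdia6 and, on the opposite strand, −126 to −108 in Creld2, counted from the start of transcription. Hsp90b1 has an ERSE at −212 to −194 and another, on the opposite strand, at −107 to −89.
Hspa5: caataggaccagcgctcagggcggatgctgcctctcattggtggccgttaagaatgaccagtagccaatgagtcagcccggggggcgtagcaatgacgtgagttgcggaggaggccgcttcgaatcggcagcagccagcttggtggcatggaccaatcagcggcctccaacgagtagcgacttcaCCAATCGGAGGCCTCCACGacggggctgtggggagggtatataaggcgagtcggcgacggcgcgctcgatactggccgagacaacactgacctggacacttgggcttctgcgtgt
Herpud1: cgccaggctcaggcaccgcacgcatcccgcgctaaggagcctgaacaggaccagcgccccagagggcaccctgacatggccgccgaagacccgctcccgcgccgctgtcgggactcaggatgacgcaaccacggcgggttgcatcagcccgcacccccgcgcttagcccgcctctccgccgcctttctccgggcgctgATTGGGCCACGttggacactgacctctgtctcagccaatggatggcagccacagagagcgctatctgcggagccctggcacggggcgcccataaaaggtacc
Hsp90b1: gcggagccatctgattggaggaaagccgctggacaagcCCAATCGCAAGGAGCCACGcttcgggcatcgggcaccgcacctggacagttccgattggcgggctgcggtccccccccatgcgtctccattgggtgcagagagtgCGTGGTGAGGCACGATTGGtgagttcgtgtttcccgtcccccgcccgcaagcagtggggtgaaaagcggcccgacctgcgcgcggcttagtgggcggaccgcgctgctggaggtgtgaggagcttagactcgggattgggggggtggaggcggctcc
Pdia6: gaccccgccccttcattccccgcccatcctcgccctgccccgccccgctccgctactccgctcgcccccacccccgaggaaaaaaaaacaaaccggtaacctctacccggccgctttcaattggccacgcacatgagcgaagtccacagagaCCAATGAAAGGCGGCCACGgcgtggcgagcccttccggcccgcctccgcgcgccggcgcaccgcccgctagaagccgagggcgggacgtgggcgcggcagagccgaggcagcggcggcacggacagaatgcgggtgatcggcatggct
Creld2: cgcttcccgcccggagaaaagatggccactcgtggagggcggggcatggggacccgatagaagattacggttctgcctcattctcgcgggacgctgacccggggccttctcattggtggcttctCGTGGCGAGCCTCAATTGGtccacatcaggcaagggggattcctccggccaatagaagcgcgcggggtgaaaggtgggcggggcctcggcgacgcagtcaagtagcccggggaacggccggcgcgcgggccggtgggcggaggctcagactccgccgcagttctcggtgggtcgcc

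The libraries held between 11938392 fragments (ESC replicate 2) and 33916913 fragments (PRL replicate 2), as recovered from the FPKM values. No label says that both libraries of a group are from separate cultures. The tests below therefore measure only the spread between these libraries, which may be technical. By RefSeq positions 19 of the 50 genes are overlapped by another gene, as Hspa5 is by Rabepk and Pdia3 by Catsper2, and 3 (Calr, Selk and Spcs2) have named pseudogenes. Whether reads were counted by strand is not given in the sources used here, so reads of overlapping genes cannot be told apart. The labelled cell types were checked by marker genes. The 6 ESC markers summed to 4652 and 4553 FPKM in the ESC libraries and to 0.761 FPKM or less in each HC11 library. The 9 epithelial markers summed to between 1261 and 4277 FPKM in the HC11 libraries, against 202 and 231 FPKM in ESC. Of the 9, 8 passed the test described below upwards and 1 downwards in N against ESC (36.1% and 41.6% of all genes). Krt19 went against the sum, with 4.85 and 3.66 FPKM in ESC and 0.243 FPKM or less in each HC11 library. Cdh1 had 106 and 133 FPKM in ESC, 148 and 148 FPKM in N and 94.5 and 89.0 FPKM in PRL cells. Of the 8 milk protein genes 2 passed the level filter, and Csn2 (β-casein) had 128 and 111 FPKM in PRL cells, against 0.219 and 0.32 FPKM in P cells. The 16 fibroblast markers, which bear on feeder cells, summed to 649 and 351 FPKM in ESC replicates 1 and 2, and Col1a1 had 114 and 13.3 FPKM there. In HC11 cells the same markers summed to 1588 and 1479 FPKM in N, 3852 and 3682 FPKM in P and 4304 and 3982 FPKM in PRL cells. Without Sparc and Postn, which were expressed in every HC11 library, the sums were 835 and 704, 223 and 229, and 268 and 296 FPKM. Of the 16 markers 5 passed upwards and 5 downwards in P against N (24.0% and 21.9% of all genes). The counts were 3 and 2 in PRL against P (8.08% and 27.3%) and 3 and 5 in PRL against N (19.1% and 34.2%). Dcn passed upwards and Col1a1 and Pdgfrb downwards in both P and PRL against N, and Thy1 was at 0.0252 FPKM or less in each HC11 library. The part of feeder RNA in the ESC levels, after the separation step, was not tested.

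The first comparison sets normal mammary epithelial cells, grown to confluence, against pluripotent cells. Of the 49 genes tested, 31 were higher and 3 were lower in N than in ESC at an adjusted p under 0.05 (limma, Benjamini-Hochberg over all genes tested), called passing the test in what follows. Among all 13210 genes 36.1% passed upwards and 41.6% downwards, so that the upward count of the list stood above the background and the downward count below it. In bulk RNA, fewer cells of one kind and less RNA per cell cannot be told apart, here and in all that follows. The thresholds of the study, a log2 fold change of 1 and an adjusted p of 0.001, were passed upwards by 8 genes (15.6% of all genes) and downwards by 1 gene (20.7% of all genes). The study applied them to DESeq2 results, and here they are applied to limma fits of FPKM. Counts at these thresholds, here and below, are therefore not comparable with those of the study. The median log2 fold change was 0.40 over the 49 genes and −0.07 over all genes. All fold changes on the log2 scale are of FPKM + 1.

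The folding enzymes and chaperones were mostly higher in N, and P4hb had the largest upward log2 fold change of the list. P4hb, the protein disulfide isomerase that is also a subunit of prolyl 4-hydroxylase, had 1160 and 1090 FPKM in N cells, against 221 and 204 FPKM in ESC. It was 5.28-fold higher in N (log2 fold change 2.40, standard error, SE, 0.07, limma adjusted p = 4.6e-07), and the highest of the 50 genes in every HC11 library by FPKM. Hspa5 (BiP), the main Hsp70 chaperone of the ER, had 385 and 381 FPKM in N cells, against 170 and 135 FPKM in ESC (log2 fold change 1.33, SE 0.17, adjusted p = 0.00038). Hsp90b1 (Grp94), its Hsp90 counterpart, had 401 and 409 FPKM in N cells, against 190 and 148 FPKM in ESC (1.27, SE 0.16, adjusted p = 0.00037). Both N libraries lay above both ESC libraries for all of these genes. All 4 disulfide isomerases and 8 of 11 chaperones and cochaperones passed upwards (36.1% of all genes). Hyou1, which releases nucleotide from BiP, was at 79.0 and 72.4 FPKM in N cells, against 68.2 and 60.8 FPKM in ESC, and did not pass (adjusted p = 0.0974). Neither did Creld2 (log2 fold change −0.32, adjusted p = 0.0942) nor Dnajb9 (−0.34, adjusted p = 0.0552), a BiP cochaperone, which passed downwards with median ratio scaling (−0.35, adjusted p = 0.0211) and with quantile normalization (−0.32, adjusted p = 0.0191). Of the 49 genes 10 were at least 1.2-fold lower in ESC replicate 2 than in ESC replicate 1 (20.4%, median ratio 0.93), against 38.5% of 12016 genes with at least 1 FPKM on average in ESC (median ratio 0.904). Hspa5, Hsp90b1 and Pdia6 were among the 10, with ratios of 0.791, 0.783 and 0.741. Hspa5, Hsp90b1, Pdia6, P4hb and Manf passed the thresholds of the study. Hspa5 lost this place without ESC replicate 2 or without either library of N or P (adjusted p up to 0.00414), and Hsp90b1 without either library of N or P (up to 0.00418). Manf, at a log2 fold change of 1.01, lost it without any 1 library of ESC, N or P (up to 0.00712) and Pdia6 without either N library (up to 0.00222), while P4hb kept it in each omission. The list had 9 genes past these thresholds with all libraries, and 4, 5, 6, 6 and 6 without N replicate 2, N replicate 1, ESC replicate 2, P replicate 1 and P replicate 2. The downward count at 0.05, which was 3, became 7 without ESC replicate 2 and 5 without ESC replicate 1.

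Of 8 ERAD genes tested, 7 passed upwards in N (36.1% of all genes). Edem1, a lectin that leads misfolded glycoproteins to degradation, had 20.8 and 21.3 FPKM in N cells, against 7.67 and 6.76 FPKM in ESC (log2 fold change 1.43, SE 0.08, adjusted p = 5.8e-06). Its relative Edem2, a mannosidase that trims N-glycans, had 24.0 and 27.6 FPKM in N cells, against 12.8 and 10.6 FPKM in ESC. Herpud1, a membrane protein of the ubiquitin ligase complex of ERAD, did not differ by more than the spread, with 31.2 and 39.2 FPKM in N cells, against 37.0 and 31.7 FPKM in ESC (log2 fold change 0.03, adjusted p = 0.838). Derl3 gave 19 fragments in the N libraries together and 28 in the ESC libraries together, at most 0.878 FPKM in a library, and was not fitted. The rate ratio of its fragments was 0.391, with an exact 95% interval from 0.206 to 0.726 for counting error only. The call of Sel1l (log2 fold change 0.23, adjusted p = 0.0347) was lost in 7 of the 8 omissions of 1 library, all but that of ESC replicate 1 (adjusted p up to 0.134).

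Among the genes of entry into the ER, Spcs1, a subunit of signal peptidase, had 126 and 123 FPKM in N cells, against 44.1 and 38.0 FPKM in ESC (log2 fold change 1.58, SE 0.10, adjusted p = 1.3e-05). The channel subunits Sec61a1, Sec61b and Sec61g were 1.73-, 1.67- and 1.71-fold higher in N, and 4 of 5 translocon genes passed upwards (36.1% of all genes). In the translocon-associated protein (TRAP) complex the subunits moved apart. Ssr1, Ssr3 and Ssr4 passed upwards, while Ssr2 had 149 and 162 FPKM in N cells, against 264 and 272 FPKM in ESC (log2 fold change −0.78, SE 0.07, adjusted p = 6.5e-05). Sec23b also passed downwards. It is a part of the inner COPII coat that buds vesicles from the ER, and had 31.9 and 29.3 FPKM in N cells, against 44.9 and 40.4 FPKM in ESC (log2 fold change −0.46, adjusted p = 0.00239). In the oligosaccharyltransferase, which moves the glycan onto the chain, Stt3b and Rpn1 passed upwards, and the call of Rpn1 (0.31, adjusted p = 0.0345) was lost in 7 of the 8 omissions, all but that of ESC replicate 2 (up to 0.164).

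Of 6 genes of UPR sensors and transcription factors 1 passed upwards and 1 downwards in N against ESC (36.1% and 41.6% of all genes), and 4 did not pass. Xbp1, whose mRNA is spliced by the sensor Ern1 (Ire1), had 37.1 and 40.6 FPKM in N cells, against 37.3 and 33.2 FPKM in ESC. It did not pass as deposited (0.14, adjusted p = 0.171) but did with quantile normalization (0.20, adjusted p = 0.035). FPKM of the gene do not separate its spliced from its unspliced form. Creb3l1 (Oasis), an ER-bound transcription factor known for collagen secretion in bone, had 0 and 2 fragments in the N libraries (0 and 0.0385 FPKM), against 12.6 and 14.9 FPKM in the ESC libraries, which together held 822 fragments. The rate ratio of the fragments was 0.0014, with an exact 95% interval from 0.00017 to 0.00508 that covers counting error only. Its close relative Creb3l2, known for the same role in cartilage, had 7.84 and 6.93 FPKM in N cells, against 4.88 and 2.75 FPKM in ESC (log2 fold change 0.83, SE 0.20, adjusted p = 0.00739). Creb3l1 was at 0 or at 1 fragment in each of the P and PRL libraries as well, where 3 fragments would be 0.0391 to 0.0553 FPKM.

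**Figure D1:**
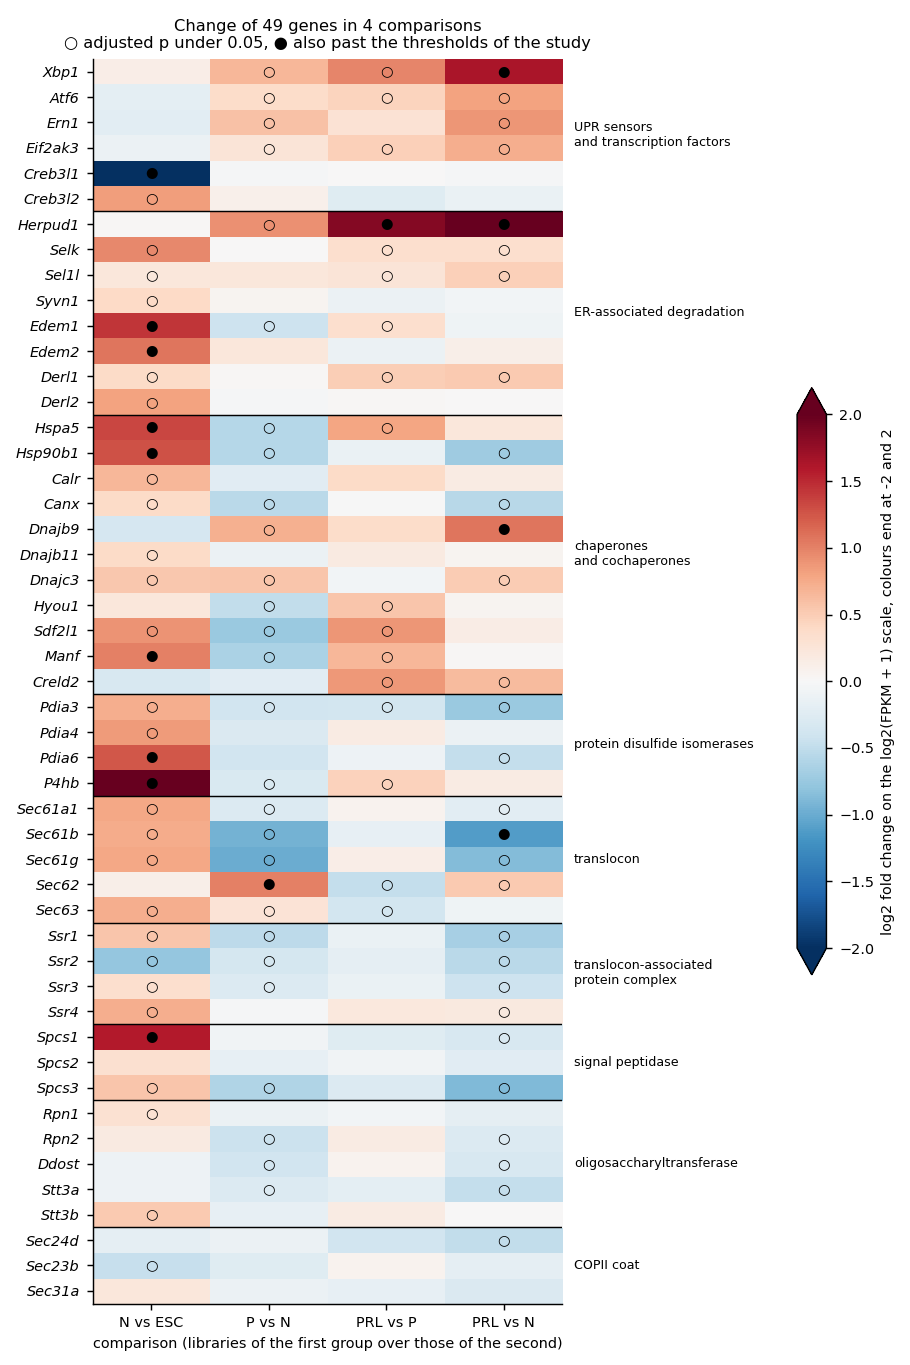
Log2 fold change, on the log2(FPKM + 1) scale, of the 49 tested genes (vertical, grouped by role) in the 4 comparisons (horizontal). Open circles mark an adjusted p under 0.05 and filled circles the thresholds of the study as well, with 9 filled circles in N against ESC and 1, 1 and 4 in the other comparisons.

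Lactogenic differentiation of HC11 was followed step by step, as P against N and PRL against P, and over its whole course, as PRL against N. These comparisons share libraries and so are given side by side, each by its own values. In P cells 9 of the 49 genes passed upwards and 19 downwards relative to N, where 24.0% and 21.9% of all genes did so. The medians were −0.17 for the 49 genes and 0.02 for all genes. At the thresholds of the study 1 gene passed upwards (Sec62) and 0 downwards, against 4.54% and 4.1% of all genes. The count of genes below N was 7 without P replicate 2, 8 without P replicate 1 and 11 without either N library, and the count above N was 6 without any 1 of these 4. The summed FPKM of the epithelial markers also differed between the states, with 4277 and 4210 FPKM in N, 1646 and 1693 FPKM in P and 1261 and 1291 FPKM in PRL cells. This order was that of Krt5 and Krt14, which mark basal cells, and without them the other 7 markers summed to 729 and 704, 777 and 790, and 888 and 894 FPKM. Of the 9 markers 2 passed upwards and 2 downwards in P against N (24.0% and 21.9% of all genes). The counts were 1 and 5 in PRL against P (8.08% and 27.3% of all genes), and 2 and 4 in PRL against N (19.1% and 34.2%). Those passing upwards against N, in both P and PRL, were Krt18, a luminal keratin, and Elf5, a transcription factor of luminal progenitors. Krt8 had 239 and 228 FPKM in N, 180 and 185 FPKM in P and 199 and 210 FPKM in PRL cells. Trp63 had 15.6 and 15.6, 18.0 and 16.9, and 9.15 and 8.23 FPKM in the same states. The part of these marker differences, and of those of the fibroblast markers above, in the results of the list was not tested. In PRL cells 14 genes passed upwards and 3 downwards relative to P, where 8.08% of all genes passed upwards and 27.3% downwards. The medians were 0.07 for the 49 genes and −0.15 for all genes. At the thresholds of the study this comparison gave 1 gene upwards, Herpud1, and 0 downwards (0.689% and 1.44% of all genes). The count above P was 7 and 6 when P replicate 1 and P replicate 2 were omitted and 8 when PRL replicate 2 was, and the count below P was 0 without P replicate 1 or either PRL library, 1 without P replicate 2, 2 without either N library and 11 without either ESC library. Between PRL and N 13 genes passed upwards and 16 downwards (19.1% and 34.2% of all genes), and 3 and 1 at the thresholds of the study (5.47% and 8.0% of all genes). The count below N was 10 without N replicate 2 and 9 without PRL replicate 1, and that past the thresholds of the study was 2 without either N library or PRL replicate 1.

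The FPKM of most genes were somewhat lower in the PRL libraries. The median log2 fold change of all genes was −0.148 between PRL and P and −0.116 between PRL and N, and median ratio scaling of the libraries sets both to 0. With that scaling 23 genes of the list passed upwards and 0 downwards in PRL against P (16.8% and 16.6% of all genes), and 16 upwards and 8 downwards in PRL against N (27.7% and 25.3% of all genes). With quantile normalization these were 16 and 1 against P (15.4% and 15.8% of all genes), and 14 and 10 against N (26.7% and 27.3%). Differences are given below as deposited, and where another scaling ends or adds a call it is named. Median ratio scaling added rises in PRL against P of Calr (0.60, adjusted p = 0.0337), Dnajb11 (0.40, adjusted p = 0.0416), Pdia4 (0.38, adjusted p = 0.0313), Sec61a1 (0.29, adjusted p = 0.0326) and Ssr4 (0.43, adjusted p = 0.0146), none of which passed as deposited or with quantile normalization. Dnajb9 passed upwards in this comparison with both scalings (0.57 and 0.55, adjusted p = 0.0083 and 0.00692), against 0.36 as deposited (adjusted p = 0.0818). Median ratio scaling also added a rise of P4hb in PRL against N (0.37, adjusted p = 0.011) and a fall of Pdia6 in P against N (−0.39, adjusted p = 0.0252), and both scalings a rise of Sel1l in P against N (0.21 and 0.20, adjusted p = 0.0353 and 0.0355).

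**Figure D2:**
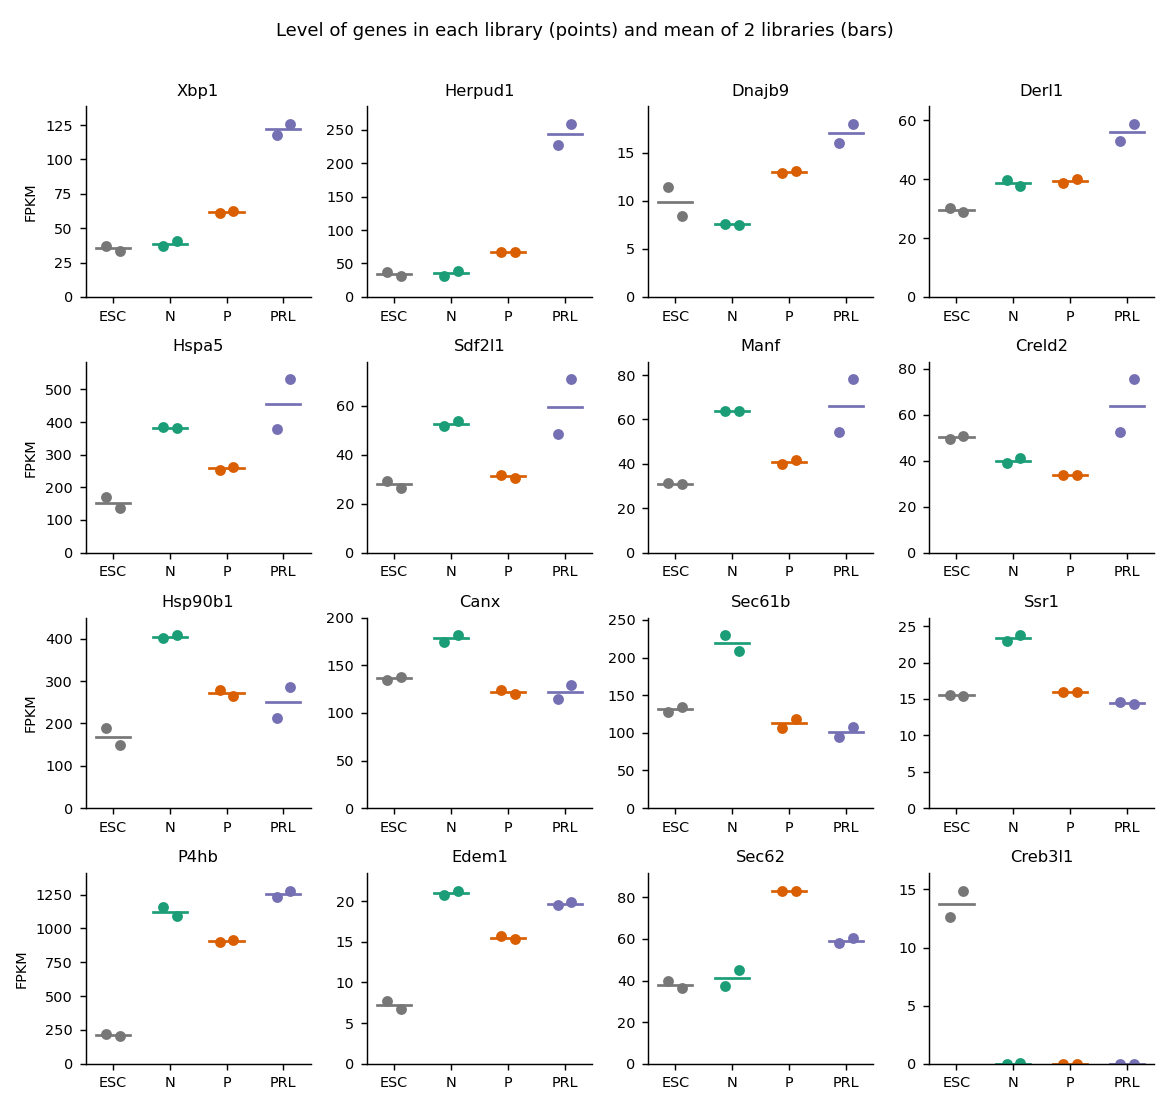
FPKM (vertical, each panel from 0) of 16 genes in the 2 libraries of ESC, N, P and PRL (points), with a bar at the mean of 2 libraries. Xbp1 and Herpud1 are highest in PRL, with Herpud1 at 227 and 259 FPKM there. Hspa5, Sdf2l1 and Manf are lower in P than on either side, and Sec61b and Ssr1 stay low in PRL.

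Of 6 genes of UPR sensors and transcription factors 4 passed upwards in P against N, 3 in PRL against P and 4 in PRL against N, with 0 downwards in each. Among all genes 24.0%, 8.08% and 19.1% passed upwards in these comparisons. Xbp1 had 37.1 and 40.6 FPKM in N, 61.2 and 62.5 FPKM in P and 118 and 126 FPKM in PRL cells, 3 levels that do not overlap. Its log2 fold change was 0.66 in P against N (SE 0.08, limma adjusted p = 0.00103) and 0.97 in PRL against P (SE 0.08, adjusted p = 0.00071), or 1.12 above the median shift of all genes. The sensor kinases were expressed at much lower FPKM. Ern1, which splices Xbp1 mRNA, had 2.32 and 2.1 FPKM in N, 3.60 and 4.07 FPKM in P and 4.80 and 5.04 FPKM in PRL cells. It passed in P against N (0.59, adjusted p = 0.00505), while its further difference between PRL and P did not pass as deposited (0.29, adjusted p = 0.0814) but did with median ratio scaling (0.47, adjusted p = 0.0108) and with quantile normalization (0.58, adjusted p = 0.00665). Eif2ak3 (Perk), the sensor that slows translation, had 9.59 and 9.56 FPKM in N, 11.3 and 11.8 FPKM in P and 16.7 and 16.2 FPKM in PRL cells (PRL against P 0.47, SE 0.07, adjusted p = 0.0042). Atf6, a sensor that is cut in the Golgi to release a transcription factor, had 4.89 and 4.85 FPKM in N, 6.57 and 6.50 FPKM in P and 9.32 and 9.22 FPKM in PRL cells. Its calls in both steps were lost without any 1 of the 4 libraries compared (adjusted p up to 0.0826 in P against N and 0.0652 in PRL against P), whereas the call of PRL against N held in each omission (log2 fold change 0.81, adjusted p up to 0.0049). Under quantile normalization Atf6 did not pass in P against N (0.27, adjusted p = 0.131). The call of Eif2ak3 in P against N (0.25, adjusted p = 0.0311) was lost on omission of any single HC11 library, with an adjusted p of up to 0.18. Creb3l2 passed in no comparison among HC11 states.

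The largest positive log2 fold change of the list in PRL cells, against P and against N, was that of an ERAD gene. Herpud1, whose promoter with the ERSE-II is shown above, had 31.2 and 39.2 FPKM in N, 66.8 and 67.3 FPKM in P and 227 and 259 FPKM in PRL cells. PRL cells thus had 3.62-fold the FPKM of P cells (log2 fold change 1.84, SE 0.13, adjusted p = 0.00042) and 6.9-fold that of N cells (2.76, SE 0.13, adjusted p = 1e-05). In PRL against P its place past the adjusted p of 0.001 was lost on omission of any single HC11 library (adjusted p up to 0.00855), and it passed at 0.05 in each omission. Derl1, a derlin of the ER membrane, had 53.0 and 58.9 FPKM in PRL cells, against 38.7 and 40.1 FPKM in P cells (0.49, SE 0.07, adjusted p = 0.00372). Selk (Selenok in RefSeq), a selenoprotein that binds derlins, had 84.1 and 86.4 FPKM in PRL cells, against 67.1 and 67.4 FPKM in P cells (0.34, adjusted p = 0.0124). Sel1l, the adaptor of the ligase Syvn1 (Hrd1), had 20.6 and 21.1 FPKM in PRL cells, against 17.5 and 17.1 FPKM in P cells (0.26, adjusted p = 0.044). The call of Selk was lost without any 1 of the 4 libraries compared (adjusted p up to 0.0867) and that of Sel1l on omission of any single HC11 library (up to 0.204). Edem1 moved both ways, with 20.8 and 21.3 FPKM in N, 15.7 and 15.3 FPKM in P and 19.5 and 19.9 FPKM in PRL cells (P against N −0.42, adjusted p = 0.00501, and PRL against P 0.33, adjusted p = 0.0184). The second of these was lost without any 1 of the 4 libraries compared (up to 0.118). Syvn1, Edem2 and Derl2 passed in no comparison among HC11 states as deposited. Edem2 had 24.0 and 27.6 FPKM in N, 30.3 and 30.4 FPKM in P and 27.5 and 28.2 FPKM in PRL cells, and passed upwards in PRL against N with median ratio scaling (0.31, adjusted p = 0.0174) and with quantile normalization (0.24, adjusted p = 0.0429), against 0.11 as deposited.

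The chaperones of the ER lumen were mostly lower in P than in N, with 6 of 11 passing downwards and 2 upwards (21.9% and 24.0% of all genes). Hspa5, with its ERSE and TGACGTG, had 385 and 381 FPKM in N, 254 and 262 FPKM in P and 379 and 531 FPKM in PRL cells (P against N −0.57, SE 0.17, adjusted p = 0.035, and PRL against P 0.79, SE 0.17, adjusted p = 0.014). Sdf2l1, which works with Dnajb11 to keep BiP's clients soluble, had 51.5 and 53.8 FPKM in N, 31.8 and 30.4 FPKM in P and 48.5 and 70.7 FPKM in PRL cells (−0.74, adjusted p = 0.0106, and 0.89, adjusted p = 0.00789). Manf, a BiP cofactor that is secreted under stress, had 63.7 and 63.6 FPKM in N, 40.0 and 41.7 FPKM in P and 54.4 and 78.1 FPKM in PRL cells (−0.63, adjusted p = 0.015, and 0.66, adjusted p = 0.0169). Hyou1 followed the same order, with 79.0 and 72.4, 52.1 and 54.1, and 70.8 and 86.1 FPKM in N, P and PRL cells. In all of these genes both P libraries lay below both libraries of N and of PRL. None of the 4 passed in PRL against N (adjusted p between 0.316 and 0.895).

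These calls depend on single libraries. For P against N those of Hspa5, Manf and Hsp90b1 were lost without any 1 of the 4 libraries compared (adjusted p up to 0.143, 0.0836 and 0.13). Those of Hyou1 and Sdf2l1 were lost without either P library, that of Hyou1 without N replicate 1 and that of Sdf2l1 without N replicate 2 (up to 0.0676 and 0.063). In PRL against P those of Hspa5 and Hyou1 were lost without P replicate 1, P replicate 2 or PRL replicate 2 (up to 0.0857 and 0.0772), that of Manf without either P library (up to 0.0991) and that of Sdf2l1 without P replicate 2 (adjusted p = 0.0568). With quantile normalization Hspa5 did not pass in P against N (−0.39, adjusted p = 0.101), and neither did Hsp90b1 (−0.38, adjusted p = 0.0886).

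Other chaperones took other courses. Creld2, a secreted protein of the ER that is a known target of ER stress, had 39.0 and 41.1 FPKM in N, 33.8 and 34.0 FPKM in P and 52.5 and 75.5 FPKM in PRL cells. It passed in PRL against P (log2 fold change 0.87, SE 0.15, adjusted p = 0.00668), also without each library in turn (adjusted p up to 0.0493). In PRL against N its call (0.64, adjusted p = 0.0119) was lost without N replicate 1 (adjusted p = 0.0656). Dnajb9 (ERdj4), which restrains Ern1, had 7.61 and 7.47 FPKM in N, 12.9 and 13.1 FPKM in P and 16.0 and 18.0 FPKM in PRL cells (P against N 0.71, adjusted p = 0.00604, and PRL against N 1.07, adjusted p = 0.00074). Its place past an adjusted p of 0.001 was lost on omission of any single HC11 library (up to 0.00957). Dnajc3 (p58IPK), an inhibitor of Eif2ak3, was higher in P at 20.4 and 20.6 FPKM, against 13.1 and 14.0 FPKM in N (0.56, adjusted p = 0.00169), and had 18.8 and 20.6 FPKM in PRL cells. Hsp90b1 and the lectin chaperone Canx were lower in P than in N and did not pass in PRL against P. Hsp90b1 had 401 and 409 FPKM in N, 280 and 265 FPKM in P and 213 and 287 FPKM in PRL cells, and Canx 175 and 182, 124 and 120, and 115 and 129 FPKM. PRL cells were below N cells in both genes (−0.71, adjusted p = 0.0103, and −0.55, adjusted p = 0.00092), but the call of Hsp90b1 was lost without N replicate 2 or PRL replicate 1 (up to 0.0549). Calr, the soluble lectin chaperone, and Dnajb11 passed in none of the 3 comparisons as deposited, with Calr at 815 and 873, 713 and 732, and 813 and 1080 FPKM.

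Of the disulfide isomerases, P4hb had 1160 and 1090 FPKM in N, 903 and 914 FPKM in P and 1230 and 1280 FPKM in PRL cells (P against N −0.30, SE 0.07, adjusted p = 0.0139, and PRL against P 0.46, SE 0.07, adjusted p = 0.00442). Under quantile normalization neither difference passed, with 0.03 in P against N (adjusted p = 0.83) and 0.23 in PRL against P (adjusted p = 0.109). Without N replicate 1 or either P library P4hb did not pass in P against N (up to 0.0943). Pdia3 (ERp57), the partner of Calr and Canx, had 256 and 251, 191 and 197, and 144 and 157 FPKM in N, P and PRL cells and was 0.592-fold in PRL relative to N (−0.75, SE 0.11, adjusted p = 0.00136). Its fall between PRL and P (−0.37, adjusted p = 0.0403) was not called with median ratio scaling (−0.15, adjusted p = 0.259) or quantile normalization (−0.41, adjusted p = 0.0503), or on omission of any single HC11 library (up to 0.191). In P against N (−0.39, adjusted p = 0.0268) its call was lost without any 1 of the 4 libraries compared (up to 0.131) and with quantile normalization (−0.26, adjusted p = 0.141). Pdia6 had 178 and 197 FPKM in PRL cells, against 263 and 260 FPKM in N cells (−0.48, adjusted p = 0.0235, lost without any 1 of the 4 libraries, up to 0.129, and with median ratio scaling, −0.27, adjusted p = 0.0777, or quantile normalization, −0.40), and Pdia4 passed in no comparison among HC11 states as deposited.

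**Figure D3:**
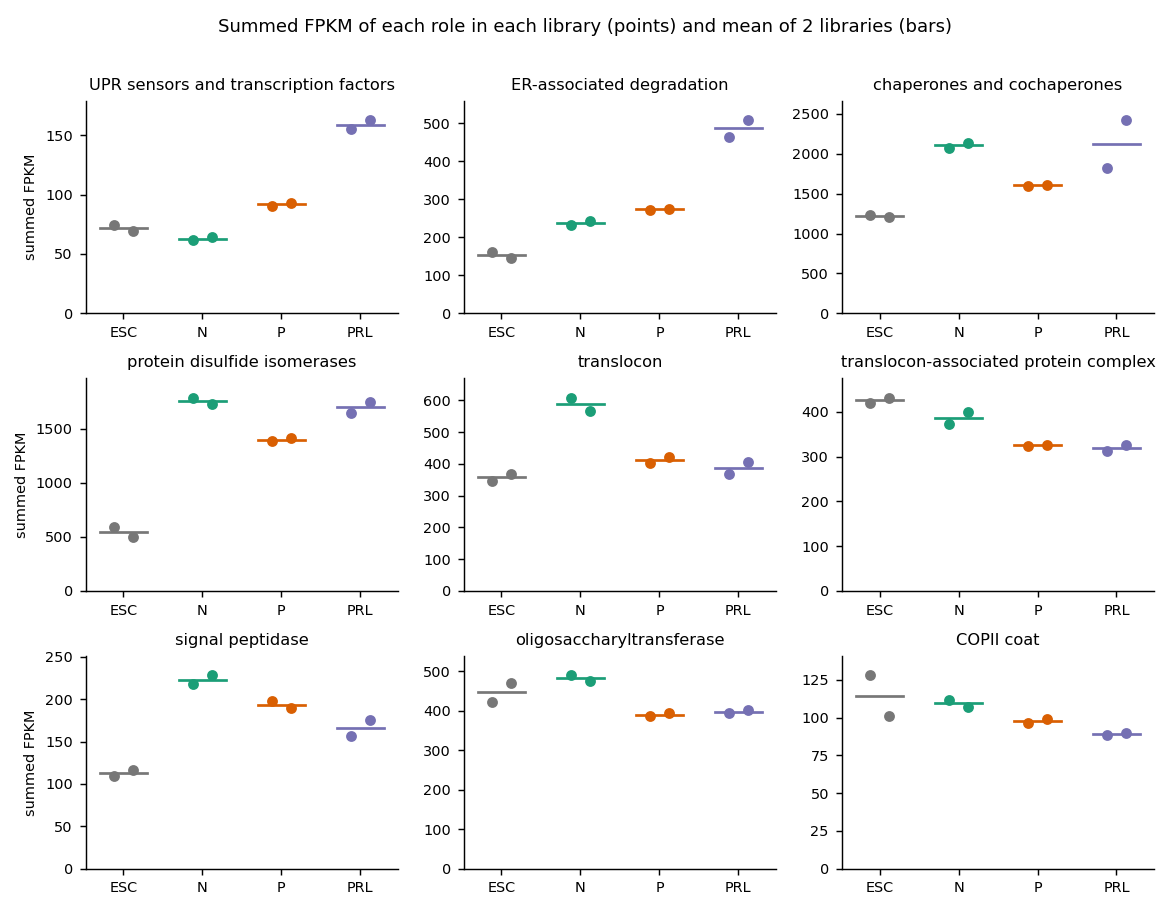
Summed FPKM (vertical, each panel from 0) of the genes of each of 9 roles in the 2 libraries of ESC, N, P and PRL (points), with a bar at the mean of 2 libraries. UPR sensors and ERAD are highest in PRL, at 155 and 163 and at 465 and 509 summed FPKM, of which Xbp1 gives 118 and 126 and Herpud1 227 and 259 FPKM, while the translocon, signal peptidase and COPII coat lie lower in P and PRL than in N.

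The sums of both of these roles in PRL cells were largely those of a single gene. Without Xbp1 the UPR sensors and transcription factors summed to 24.6 and 23.5 FPKM in N, 29.2 and 30.7 FPKM in P and 37.5 and 36.9 FPKM in PRL cells, and to 36.8 and 36.3 FPKM in ESC. Without Herpud1 the ERAD genes summed to 201 and 205 FPKM in N, 206 and 206 FPKM in P and 239 and 250 FPKM in PRL cells, and to 124 and 114 FPKM in ESC.

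Of 5 translocon genes 3 passed downwards and 2 upwards in P against N, and 3 and 1 in PRL against N. Among all genes 21.9% and 24.0% did so in P against N, and 34.2% and 19.1% in PRL against N. Sec61b, a small subunit of the translocon, had 230 and 209 FPKM in N, 107 and 119 FPKM in P and 94.3 and 108 FPKM in PRL cells. P cells were at 0.515-fold of N (log2 fold change −0.95, SE 0.10, adjusted p = 0.0004) and PRL cells at 0.462-fold (−1.11, SE 0.10, adjusted p = 0.00013). The PRL value lay past the thresholds of the study, but not without either N library or PRL replicate 1 (adjusted p up to 0.00203). Sec61g, the other small subunit, had 189 and 172, 86.9 and 92.8, and 91.0 and 107 FPKM in the same order of states (P against N −1.0, SE 0.13, adjusted p = 0.00118). The channel itself, Sec61a1, had a smaller log2 fold change, with 105 and 109 FPKM in P cells, against 136 and 125 FPKM in N cells (−0.28, adjusted p = 0.0166, lost without N replicate 1 or either P library, up to 0.113). Quantile normalization ended this call (−0.17, adjusted p = 0.0764). Between PRL and N the call of Sec61a1 (−0.21, adjusted p = 0.0421) was lost on omission of any single HC11 library (up to 0.207) and with both other scalings, whereas Sec61b (−0.90) and Sec61g (−0.65) passed with median ratio scaling.

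Sec62 and Sec63, which help short and slow signal peptides through the channel, went the other way. Sec62 had 37.5 and 44.9 FPKM in N, 83.3 and 83.0 FPKM in P and 57.9 and 60.4 FPKM in PRL cells, 3 levels that do not overlap. P cells had 2.02-fold the FPKM of N cells (log2 fold change 1.00, SE 0.10, adjusted p = 0.00032). The log2 value is at the study threshold of 1, and the call at that threshold was lost without N replicate 1 or either library of P or PRL (adjusted p at most 0.00518), with the test at 0.05 passed each time. Sec63 had 20.5 and 19.0 FPKM in P cells, against 16.4 and 15.8 FPKM in N cells (0.28, adjusted p = 0.0188, lost without any 1 of the 4 libraries, up to 0.146). In PRL against P both were lower as deposited (−0.48, adjusted p = 0.0103, and −0.36, adjusted p = 0.00995), but neither with median ratio scaling (−0.27, adjusted p = 0.0609, and −0.16, adjusted p = 0.167). These calls were also lost without either PRL library or P replicate 1, and that of Sec62 without P replicate 2 as well (up to 0.0702 for Sec62 and 0.0934 for Sec63). Quantile normalization ended that of Sec63 (−0.21, adjusted p = 0.0932).

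In the TRAP complex, which helps some signal peptides open the channel, Ssr1, Ssr2 and Ssr3 passed downwards both in P and in PRL against N, and Ssr4 did not. Ssr1 had 22.9 and 23.8, 16.0 and 15.9, and 14.6 and 14.3 FPKM in N, P and PRL cells (P against N −0.53, SE 0.06, adjusted p = 0.0008). Between P and N the call of Ssr2 (−0.35) was lost without P replicate 2 (adjusted p = 0.058), and that of Ssr3 (−0.27) without N replicate 2 or either P library (up to 0.0927) and with quantile normalization (adjusted p = 0.0662). In PRL against N the call of Ssr3 (−0.41) was lost with median ratio scaling (−0.20, adjusted p = 0.062). Ssr4 had 122 and 127 FPKM in PRL cells, against 107 and 111 FPKM in N cells (0.19, adjusted p = 0.0498, lost on omission of any single HC11 library, up to 0.212). Of the signal peptidase subunits, Spcs3 had 51.7 and 53.5, 35.0 and 34.0, and 26.4 and 29.9 FPKM in the same states (P against N −0.60, adjusted p = 0.00698, and PRL against N −0.88, adjusted p = 0.00098). Spcs1 and Spcs2 did not pass in P against N, and Spcs1 was lower in PRL than in N as deposited (−0.32, adjusted p = 0.034) but not with median ratio scaling (−0.12, adjusted p = 0.344) or quantile normalization (−0.23, adjusted p = 0.0768), nor without either library of N or P or PRL replicate 1 (up to 0.192).

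The oligosaccharyltransferase holds 5 of the genes. Rpn2, Ddost and Stt3a, the catalytic subunit that acts during translocation, passed downwards in P against N. Rpn2 had 163 and 145, 115 and 112, and 127 and 127 FPKM in N, P and PRL cells, and Ddost 89.0 and 103, 70.5 and 75.6, and 74.7 and 78.4 FPKM. The P against N call of Rpn2 (−0.43, adjusted p = 0.00635) was lost without P replicate 2 (adjusted p = 0.0508), and that of Ddost (−0.38, adjusted p = 0.0124) without N replicate 2 or P replicate 1 (up to 0.0902). In PRL against N both passed as deposited (−0.28, adjusted p = 0.0311, and −0.32, adjusted p = 0.022), but neither with median ratio scaling (−0.07, adjusted p = 0.695, and −0.11, adjusted p = 0.455) or quantile normalization (adjusted p = 0.0989 and 0.0594). That of Rpn2 was also lost without any 1 of the HC11 libraries other than N replicate 2 (up to 0.167), and that of Ddost without N replicate 2 or either PRL library (up to 0.119). Stt3a had 96.5 and 93.0, 78.4 and 78.4, and 69.0 and 67.3 FPKM in N, P and PRL cells (P against N −0.27, adjusted p = 0.0346, and PRL against N −0.47, adjusted p = 0.00307). The first of these calls was lost on omission of any single HC11 library (up to 0.15) and both with median ratio scaling (adjusted p = 0.0969 and 0.109), and quantile normalization ended the first (adjusted p = 0.068). Stt3b, which glycosylates sites that were skipped, had 42.2 and 43.9, 38.1 and 38.2, and 43.2 and 42.8 FPKM and passed in no comparison among HC11 states as deposited, and neither did Rpn1. With median ratio scaling the log2 fold change of Stt3b between PRL and N, which was −0.00, became 0.20 (adjusted p = 0.0265). Stt3b also passed downwards in P against N with that scaling (−0.18, adjusted p = 0.0416) and upwards in PRL against P with both scalings (0.38 and 0.26, adjusted p = 0.00424 and 0.0172). In the COPII coat, Sec24d had 9.52 and 9.44 FPKM in PRL cells, against 13.3 and 14.1 FPKM in N cells (−0.49, adjusted p = 0.0393, lost on omission of any single HC11 library, up to 0.154, and with median ratio scaling, −0.29, adjusted p = 0.0838, or quantile normalization, adjusted p = 0.0525), and Sec23b and Sec31a passed in no comparison among HC11 states as deposited. Sec23b passed downwards in P against N with median ratio scaling (−0.27, adjusted p = 0.0342) and with quantile normalization (−0.25, adjusted p = 0.0432), and upwards in PRL against P with median ratio scaling (0.28, adjusted p = 0.0363).

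How far the calls rest on 1 library can be given for the list as a whole. In P against N, 6 of the 9 rises and 6 of the 19 falls were called in each of the 8 fits that leave out 1 library. The rises are those of Xbp1, Ern1, Dnajb9, Dnajc3, Herpud1 and Sec62, and the falls those of Canx, Edem1, Sec61b, Sec61g, Ssr1 and Spcs3. In PRL against P this held for 6 of 14 rises, those of Xbp1, Eif2ak3, P4hb, Herpud1, Creld2 and Derl1, and for 0 of 3 falls. In PRL against N it held for 11 of 13 rises and 9 of 16 falls, and in N against ESC for 29 of 31 and 3 of 3.

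The 2 PRL libraries differed from each other in the chaperones more than in the other roles. Of 11 chaperones and cochaperones 7 were at least 1.2-fold higher in PRL replicate 2 than in replicate 1, at a median ratio of 1.33, and 0 were lower by that much. Sdf2l1, Creld2, Manf and Hspa5 had ratios of 1.46, 1.44, 1.43 and 1.4. Among the other genes of the list with at least 1 FPKM on average in PRL cells, Pdia4 was the only one past 1.2-fold, at 1.21. Of 10875 genes at that level 3.38% were at least 1.2-fold higher in replicate 2 and 4.96% lower. Xbp1, Herpud1 and Derl1 differed by ratios of 1.07, 1.14 and 1.11 between the same libraries. PRL replicate 2 is also the deepest library, and the part of depth or culture in this difference was not tested. Without PRL replicate 2, 8 genes of the list passed upwards in PRL against P, and without replicate 1 there were 11.

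**Figure D4:**
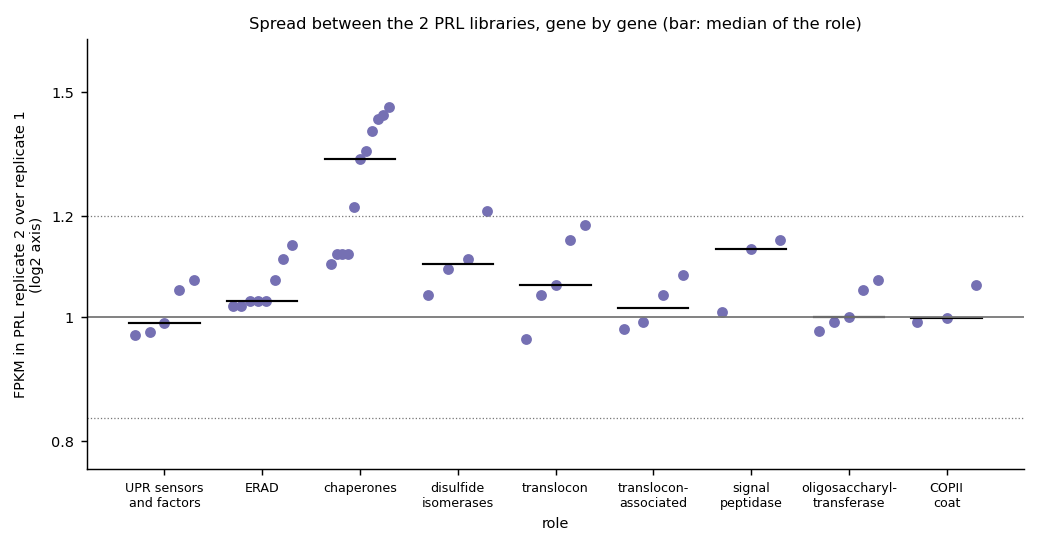
FPKM in PRL replicate 2 over replicate 1 (vertical, log2 axis) for the 48 genes with at least 1 FPKM on average in PRL cells, by role (horizontal), with a bar at the median of each role. Dotted lines mark 1.2-fold in either direction, and the chaperones have a median ratio of 1.33.

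The genes with an ERSE did not move as 1 group. Of 8 such genes tested, 7 were higher in N than in ESC, where 36.1% of all genes were higher. Between P and N, Dnajc3 passed upwards and Hspa5, Hsp90b1 and Canx downwards (24.0% and 21.9% of all genes). In PRL against P only Hspa5 and Creld2 passed, both upwards (8.08% of all genes, with 27.3% downwards). In PRL against N 2 of the 8 passed upwards and 3 downwards (19.1% and 34.2% of all genes). The medians of their log2 fold changes were 0.60, −0.30 and −0.03 in the 3 comparisons. Those of 33 tested genes of the list with a promoter sequence and no ERSE were 0.38, −0.12 and 0.07. Of these 33 genes 20 passed upwards and 1 downwards in N against ESC (36.1% and 41.6% of all genes). In P against N 7 and 11 of them did so (24.0% and 21.9% of all genes). The counts were 8 and 3 in PRL against P (8.08% and 27.3%) and 9 and 10 in PRL against N (19.1% and 34.2%). Of 28 other genes with an ERSE, 12 were tested, of which 1 was higher and 11 were lower in N than in ESC, where 41.6% of all genes were lower. Of these 12 genes 3 passed upwards and 0 downwards in P against N (24.0% and 21.9% of all genes). In PRL against P 0 and 2 did so (8.08% and 27.3% of all genes), and in PRL against N 2 and 1 (19.1% and 34.2%).

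A further 101 genes of the same pathways, outside the list of 50, are in the table, and 95 of them were tested. In N against ESC 59 passed upwards and 22 downwards (62.1% and 23.2% of the 95, against 36.1% and 41.6% of all genes), with a median of 0.38. The thresholds of the study were passed upwards by 22 and downwards by 7 of them (15.6% and 20.7% of all genes). The largest upward log2 fold changes were those of Ube2j1, a ubiquitin-conjugating enzyme of ERAD (6.21-fold), and Ost4, a small subunit of the oligosaccharyltransferase (4.31-fold). Ero1l, the oxidase that recharges disulfide isomerases, was 3.89-fold higher in N. The other 19 lay between 2.24-fold (Ppib) and 6.29-fold (Creb3l4). They include Tram1, the glycosylation genes Tusc3, Magt1, Tmem258, Mogs and Alg5, the folding genes Txndc11, Ppib, Fkbp2, Fkbp11 and Sil1, the ERAD genes Os9, Vcp, Nploc4 and Aup1, the cargo receptors Tmed2 and Tmed9, and Creb3l4. Of the 7 lower genes, Chac1 was at 0.0991-fold, Ube2j2 at 0.199-fold, Ppp1r15a at 0.236-fold, Pdia5 at 0.299-fold, Sec23a at 0.378-fold and Ppp1r15b at 0.467-fold of ESC. Clgn, a chaperone known from the testis, had 0 FPKM in each N library, against 6.09 and 4.08 FPKM in the ESC libraries. All 29 passed at 0.05 in each omission of 1 library, and Fkbp11 and Ppp1r15a alone lost their place past the thresholds of the study in an omission (3 and 1 of 8). Between P and N 21 passed upwards and 17 downwards (22.1% and 17.9%, against 24.0% and 21.9% of all genes), shares near those of all genes. The thresholds of the study were passed by 1, the Edem1 relative Edem3 (3.10-fold higher in P, and past those thresholds in 4 of 8 omissions). In PRL against P 16 passed upwards and 21 downwards (16.8% and 22.1%, against 8.08% and 27.3% of all genes). Of these 16 rises 9 lie among the 13 tested genes of the other UPR sensors and the Perk branch, whose median log2 fold change was 0.71. Atf4, the transcription factor whose translation Perk favours, was 2.1-fold higher in PRL than in P cells (a log2 fold change of 1.06, SE 0.07, adjusted p = 0.00036). Its targets Ddit3 (Chop), Trib3 and Ppp1r15a were 6.32-, 5.74- and 4.25-fold higher (adjusted p = 0.00029, 0.00022 and 0.00087). Each of the 4 passed at 0.05 in all 8 omissions of 1 library, and at the thresholds of the study in 2 of them, those of an ESC library. In the other lists of the pathway between 0 and 3 genes passed upwards in PRL against P, of 13 to 20 tested in each. In PRL against N 29 of the 95 genes passed upwards and 30 downwards (30.5% and 31.6%, against 19.1% and 34.2% of all genes). The thresholds of the study were passed by 8 and 1 (5.47% and 8.0% of all genes). The 8 are Ddit3 (8.61-fold), Ppp1r15a (4.74-fold), Trib3 (2.88-fold), Edem3 (2.51-fold), Sil1, a nucleotide exchange factor of BiP (2.47-fold), Ppp1r15b (2.39-fold), Sec11c, a catalytic subunit of signal peptidase (2.33-fold), and Atf4 (2.07-fold). The 1 lower gene is Ostc, a subunit of the oligosaccharyltransferase, with 42.0 and 45.0 FPKM in PRL cells, against 97.6 and 90.0 FPKM in N cells (0.464-fold, log2 fold change −1.09, adjusted p = 0.00022). All 9 passed at 0.05 in each omission of 1 library. Ddit3, Sil1 and Ppp1r15b were past the thresholds of the study in all 8 omissions, Atf4 in 6, Edem3 and Trib3 in 5, Ppp1r15a and Sec11c in 4 and Ostc in 2.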

How the data were processed

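Total RNA of 8 libraries, 2 for each of ESC, N, P and PRL, was depleted of ribosomal RNA. It was then enriched for mRNA with oligo(dT) beads and sequenced. The authors aligned reads to the mouse genome (mm10) with TopHat2, counted them per gene and deposited FPKM values, which were used here. The 8 columns of mean counts and the 4 tables of the authors' own comparisons, which hold log2 fold changes, standard errors and p-values, were not used. Whole fragments were recovered from the FPKM of 16933 of 16933 genes above 0 in at least 3 libraries, within 0.05 fragments, and no count model was fitted. Depth differed by 2.84-fold.

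Genes with at least 1 FPKM in at least 2 libraries were fitted as log2(FPKM + 1) with limma 3.58.1 (trend and robust options, R 4.3.3), all 8 libraries in 1 model without a block, with Benjamini-Hochberg adjustment of p-values across 13210 genes. The script was tested on simulated data. The named genes are all members of the list, the marker genes and, of the other pathway genes, those past the thresholds of the study in a comparison, of which 1 is not reported here. Genes left out of sums were chosen after their values were seen. The members and lists were chosen with earlier results of these data known. Alternatives were pseudocounts of 0.1 and 0.5, no filter or one at 5 FPKM, median ratio and quantile scaling, a replicate block, array weights, fewer libraries in the model, and leaving out each library. Fragment intervals are exact and cover counting error only. Promoter sequences are from RefSeq (GRCm38.p6). Python 3.11.15 was used for counts and figures. Protein endings were not analysed here.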

Additional observations from a re-analysis of the deposited data

How the results depend on the processing

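Over the single genes of the list, 3066 values under alternatives kept their direction and their side of the test, 236 lost the call, 171 gained it and 2 changed sign. The 2 are P4hb in P against N, −0.30 as deposited and 0.03 with quantile normalization, and Stt3b in PRL against N, −0.00 as deposited and 0.20 with median ratio scaling. The causes of these and of the changes below were not tested, and 2 libraries a group leave 4 residual degrees of freedom. The pseudocount and a filter at 5 FPKM moved no count of the list by more than 1.5 times.

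In N against ESC, the 9 genes past the thresholds of the study became 4 without a filter on low values and 5 with only the 4 libraries compared. In P against N, the 9 higher and 19 lower genes became 5 and 5 without a filter. The 1 gene past the thresholds of the study became 0 without a filter, with median ratio scaling, with the replicate block and with only the 4 libraries compared. In PRL against P, the 14 higher genes became 5 without a filter and 23 with median ratio scaling. The 3 lower genes became 0 without a filter and with median ratio scaling, 1 with quantile normalization, 12 with array weights, 11 with only the 6 HC11 libraries and 12 with only the 4 libraries compared. The 1 gene past the thresholds of the study became 0 without a filter and 2 with median ratio scaling. In PRL against N, the 16 lower genes became 9 without a filter, 8 with median ratio scaling and 10 with quantile normalization, and the 4 past the thresholds of the study became 0 without a filter.

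Leaving out each library in turn gave 29 to 33 higher, 3 to 7 lower and 4 to 10 past the thresholds of the study in N against ESC. It gave 6 to 11, 7 to 24 and 0 to 1 in P against N, 6 to 19, 0 to 11 and 0 to 1 in PRL against P, and 11 to 15, 9 to 18 and 2 to 4 in PRL against N. Leaving out a library of a group leaves it with 1, which is then assumed to vary like the other groups.

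The replicate numbers share no stated origin. Differences between replicates 1 and 2 correlated across genes at −0.028 to 0.082 between groups, so the numbers were not taken as pairing. With the replicate block the higher and lower genes were 32 and 3 in N against ESC, 9 and 17 in P against N, 15 and 2 in PRL against P and 13 and 13 in PRL against N, and 6, 0, 0 and 3 genes passed the thresholds of the study.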
